A study of Homo sapiens with 12 samples.

Results

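The MOLT4 cells compared here received either compound 955 at 0.1 µM or SNS-032 at 1 µM for 6 h. The 6 samples, 3 for each compound, were chosen from the 12 of the study by their titles. The other 6 were 3 samples given DMSO for 6 h, the control of both, and 3 given 955 at 0.1 µM for 1 h. MOLT4 is an established T lymphoblast line from an acute lymphoblastic leukaemia, and all groups were the unmodified line in suspension culture. SNS-032 blocks several cyclin-dependent kinases, CDK9 among them, and 955 is a conjugate of piperlongumine that carries SNS-032 as its target-binding part. The study asked how selective and how active the conjugate is beside that parent. The doses differed, so compound and dose cannot be told apart in any difference below.

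Transcription by RNA polymerase II pauses soon after it starts, and the kinase CDK9, bound to a cyclin T, releases the paused polymerase into the gene. Inhibitors of CDK9 deplete first the mRNAs that decay quickly, among them those of MYC and MCL1, while stable mRNAs make up a growing share of what is left. Most small nuclear RNAs are also made by RNA polymerase II, from promoters and with 3′ ends of their own, and are not polyadenylated in their mature form.

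The values come from the authors' deposited table of 5759 genes, which gives for each treated group its log2 fold change over DMSO, an F statistic, a p-value and an FDR. A listed gene had passed the authors' threshold in some comparison, so shares of genes refer to this selection. The difference between the compounds was the log2 fold change of 955 minus that of SNS-032, in which DMSO cancels. A positive difference means a higher level with 955. Its standard error (SE) was built from the F statistics and is not a spread of replicate values, which were not used here. The average level over all samples, as log2 CPM, had a median of 4.15. CPM is a share of all reads counted in a library, so fewer cells and less RNA per cell cannot be told apart. Sequencing depth is unknown. Of 16 T lymphoblast markers, 6 were listed (BCL11B, CD2, CD3G, CD4, CD7 and DNTT, at levels of 4.75 to 8.29 in the authors' deposited table). None of 8 myeloid markers, 2 of 7 B cell, 1 of 5 erythroid and 1 of 4 NK markers were listed.

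For most listed genes the difference between the compounds was small, with a median of 0.00 and quartiles of -0.20 and 0.25. With a Benjamini-Hochberg adjusted p under 0.05 and a log2 difference of at least 1, 49 genes were higher with 955 (0.851% of those listed) and 15 were lower (0.26%), 64 in all (1.11%). By adjusted p alone there were 157 genes (2.73%), 101 higher (1.75%) and 56 lower (0.972%). At an unadjusted p under 0.05 there were 850. These counts rest on an approximate test. With 8 degrees of freedom for every gene in place of the 8.23 to 28.1 recovered from the table, none of the 5759 was past the threshold and 637 had an unadjusted p under 0.05. Treating the control as not shared left 8 genes and 317 at an unadjusted p under 0.05. Scaling each comparison on the 13 mitochondrially encoded mRNAs added 0.27 to every difference, and the share of higher genes among those past the threshold went from 76.6% to 93.9%.

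**Figure D1:**
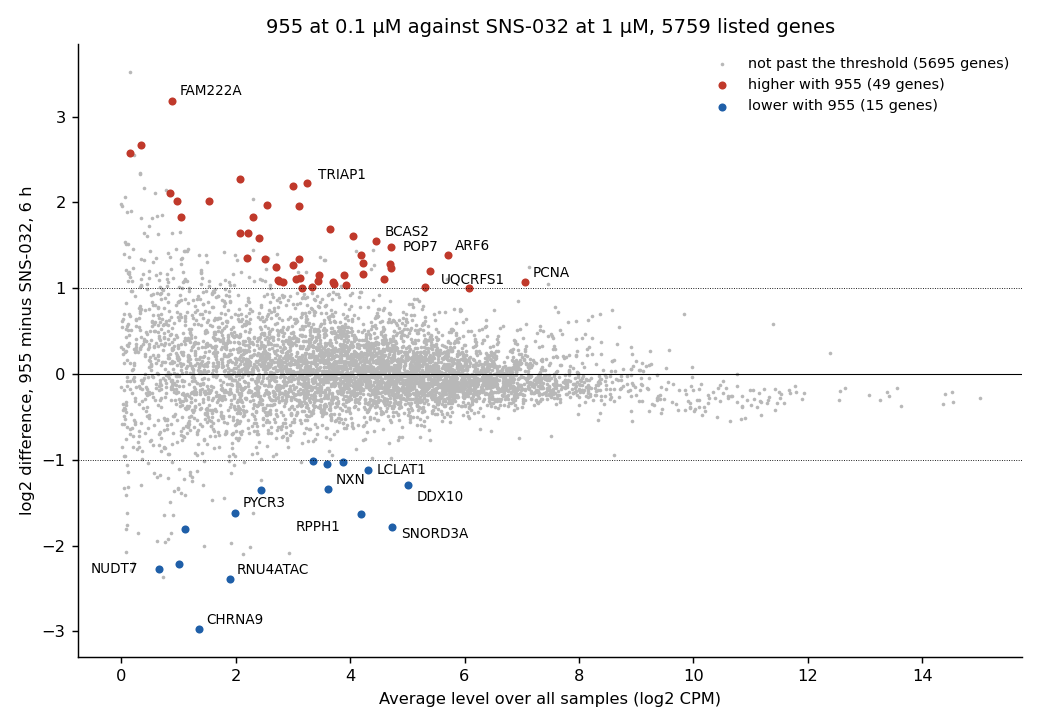
Log2 difference between 955 (0.1 µM) and SNS-032 (1 µM) at 6 h (vertical axis) against the average level over all samples in log2 CPM (horizontal axis), 1 point for each of 5759 genes; dotted lines mark a difference of 1 in either direction. The 49 genes higher with 955 (red) and the 15 lower (blue) lie outside those lines, and genes at high levels lie close to 0.

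Most genes that were higher with 955 had fallen less than with SNS-032. Of the 49, 47 were below DMSO with both compounds. The antisense transcript LEF1-AS1, named here after its values were seen, was above DMSO with both. TTN-AS1, another antisense transcript, lay above DMSO with 955 at 1.41 and below it with SNS-032 at -0.61 in the authors' deposited table. It overlaps TTN, and the counting's use of strand is not given in the sources used here, so reads of the partners cannot be told apart. The 15 genes lower with 955 were mixed: 9 were below DMSO with both compounds, 3 were above with both (SNORD3A, RPPH1 and RNU4ATAC), and SIRT4, MIR1914 and LCLAT1 lay on opposite sides. Another RefSeq gene overlaps 20 of the 49 and 7 of the 15, a listed one in 4 and 1 cases. Overlaps were counted for these genes only, so whether that share is unlike that of all listed genes is not known.

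Upstream sequence of 4 genes is shown because these genes, at or above the median level, had among the largest differences, BCAS2 and POP7 upwards and DDX10 and LCLAT1 downwards. Each run is the 250 bases before the annotated start, from RefSeq on GRCh38.p14, written 5′ to 3′ along the gene. The positions are chr1:114581616-114581865, minus strand; chr7:100705871-100706120, plus strand; chr11:108664819-108665068, plus strand; and chr2:30446996-30447245, plus strand. Capitals mark matches, on either strand, to any of 5 motifs: TATAAA of the TATA box, GGGCGG of the GC box, CACGTG of the E-box, CCGGAAG of ETS factors and the CCAAT box, searched by those letters. No matches overlap in these runs.
BCAS2 upstream: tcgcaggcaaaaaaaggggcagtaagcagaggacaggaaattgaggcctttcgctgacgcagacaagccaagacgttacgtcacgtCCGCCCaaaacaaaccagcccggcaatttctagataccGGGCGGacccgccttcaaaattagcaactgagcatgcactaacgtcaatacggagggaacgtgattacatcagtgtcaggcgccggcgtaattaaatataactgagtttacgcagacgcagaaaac
POP7 upstream: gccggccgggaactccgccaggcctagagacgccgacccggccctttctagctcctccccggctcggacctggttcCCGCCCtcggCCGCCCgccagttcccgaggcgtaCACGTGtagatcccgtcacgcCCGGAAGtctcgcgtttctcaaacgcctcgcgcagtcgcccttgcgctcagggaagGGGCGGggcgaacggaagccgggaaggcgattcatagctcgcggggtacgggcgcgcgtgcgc
DDX10 upstream: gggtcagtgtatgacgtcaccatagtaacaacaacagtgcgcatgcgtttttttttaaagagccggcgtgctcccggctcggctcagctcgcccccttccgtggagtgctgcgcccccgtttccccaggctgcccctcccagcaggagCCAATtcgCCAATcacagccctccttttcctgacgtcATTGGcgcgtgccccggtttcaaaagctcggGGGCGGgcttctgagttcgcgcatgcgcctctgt
LCLAT1 upstream: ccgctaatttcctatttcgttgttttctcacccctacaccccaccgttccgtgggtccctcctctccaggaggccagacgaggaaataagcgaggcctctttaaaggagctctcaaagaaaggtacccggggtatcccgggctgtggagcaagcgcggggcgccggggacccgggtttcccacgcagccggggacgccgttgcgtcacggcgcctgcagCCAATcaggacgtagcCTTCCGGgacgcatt
BCAS2 and POP7 hold 2 and 5 matches, mostly GC boxes. DDX10 holds 3 CCAAT boxes and a GC box, and LCLAT1 a CCAAT box and an ETS motif. BRIX1, next upwards and not shown, holds 1 match, an ETS motif. A GC box was present in 65.3% of 49 upstream windows of genes higher with 955 and in 30.8% of 13 windows of genes lower. It was in 62.3% of 6438 windows of listed genes and in 42.6% of all 35116 windows. Some genes have more than 1 window: the 49 belong to 42 genes and the 13 to 10. The ETS motif was in 22.4%, 30.8%, 14.9% and 8.52% of the same windows. For the CCAAT box the shares were 44.9%, 23.1%, 34.0% and 32.0%, higher in the genes higher with 955. A match is only a description of the letters in a window.

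Among genes at or above the median level, the splicing gene BCAS2 (gene ID 10286), a subunit of the Prp19 complex, had the largest difference upwards. It was at -3.69 with 955 and -5.24 with the parent per the authors' deposited table, and its difference of 1.55 (SE 0.24, 95% interval 1.06 to 2.04) had a Benjamini-Hochberg adjusted p of 0.000675. Of 46 listed splicing factors BCAS2 alone was past the threshold, and SRSF4 (0.52) and HNRNPA0 (0.52) were higher by adjusted p alone. The median difference of the list was 0.01, with 23 genes on each side of 0.

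POP7 (10248) encodes a protein subunit shared by RNase P and RNase MRP, which cut precursor transfer RNA and ribosomal RNA. It was at -3.14 with 955 and -4.62 with SNS-032 per the authors' deposited table, a difference of 1.48 (SE 0.20, interval 1.07 to 1.90, Benjamini-Hochberg adjusted p 0.00029). RPPH1, the RNA subunit of RNase P, lay on the other side of 0, as described with the short RNAs below. The other 7 of 9 listed subunits did not pass, and the median of the 9 was 0.26.

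Ribosome assembly genes were split. BRIX1 (55299), a factor of large-subunit assembly, was at -3.96 and -5.34 in the authors' deposited table, a difference of 1.39 (SE 0.34) that lost its call when the larger implied standard error was used. DDX10 (1662), a nucleolar RNA helicase, was at -2.90 with 955 and -1.60 with SNS-032, so it fell further with 955, by a difference of -1.29 (SE 0.19, interval -1.68 to -0.90, Benjamini-Hochberg adjusted p 0.000358). BRIX1 spans 10286 bases and DDX10 275859. Of 87 listed genes of ribosome biogenesis these were the 2 past the threshold, and IMP3 (0.76), RRP36 (0.75) and NOP53 (-0.42) passed by adjusted p alone. The list is not complete: the nucleolar protein gene ABT1, named below, was past the threshold upwards (1.24) and is not on it. The median of the 87 was -0.09, and 0.18 under mitochondrial scaling.

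The mRNA export receptor is a pair of proteins, and their genes lay on opposite sides of 0. NXT1 was at -2.82 with 955 and -4.43 with SNS-032 per the authors' deposited table, a difference of 1.61 (SE 0.34). NXF1, its larger partner, was at -1.38 and -0.64 in the same table, and was lower with 955 by adjusted p alone (-0.75, SE 0.13, Benjamini-Hochberg adjusted p 0.00268). Of 40 listed genes of mRNA processing, export and decay, NXT1 alone was past the threshold. LSM1 (0.96) and ZFC3H1 (0.76) were also higher by adjusted p alone, and EXOSC9, an exosome subunit, lower (-0.76).

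The polycomb ring finger genes PCGF1 and PCGF6, alternative subunits of variant Polycomb repressive complexes, also lay on opposite sides. PCGF1 was at -2.08 with 955 and -3.20 with SNS-032 per the authors' deposited table, a difference of 1.13 (SE 0.29) that was not past the threshold with the alternative variance model. PCGF6 was at -1.56 and -0.55 there, a difference of -1.01 (SE 0.23). No other of 42 listed chromatin modifiers passed, with or without the fold bound, and their median was -0.06 (0.21 under mitochondrial scaling).

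Respiratory chain genes gave a further pair. UQCRFS1, the Rieske iron-sulphur protein of complex III, was at -2.32 with 955 and -3.52 with SNS-032 per the authors' deposited table, a difference of 1.20 (SE 0.18, Benjamini-Hochberg adjusted p 0.000358). NDUFS4, a complex I subunit, was at -2.41 and -1.36 there, a difference of -1.05 (SE 0.28) that lost its call when the larger implied standard error was used. The other 45 of 47 genes on the nuclear respiratory chain list did not pass. By their names, COX genes of the mitochondrial genome, COX1 and COX2 among them, are also on this list, so it is not of nuclear genes alone. The list had a median of -0.16, and of 0.11 under mitochondrial scaling. Of 62 listed mitochondrial ribosomal protein genes, MRPL17 (1.69, SE 0.23) and MRPL15 (1.16, SE 0.29) were higher with 955, MRPL15 losing its call with the alternative variance model. None was lower, and the median was 0.16.

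Genes for short-lived transcripts mostly had positive differences. The 24 listed had a median difference of 0.45, against 0.00 for all listed genes, and 18 were positive. Differences ran from -1.03 to 1.29. PIM3, a serine/threonine kinase gene, was past the threshold (1.29, SE 0.25), at -2.81 with 955 and -4.09 with SNS-032 per the authors' deposited table. MCL1, the antiapoptotic BCL2 family member, was at -1.02 and -1.67 there, and was higher with 955 by adjusted p alone (0.65, SE 0.16, Benjamini-Hochberg adjusted p 0.0264). MYC was at -3.07 and -3.53 in the authors' deposited table, and its difference of 0.46 (interval -0.19 to 1.12) did not pass. IER2, an immediate early gene, was at 1.01 with 955 and -0.09 with SNS-032 in that table, and its difference of 1.10 (interval 0.51 to 1.70) missed the threshold at a Benjamini-Hochberg adjusted p of 0.0596. SOCS1, a cytokine signalling suppressor gene, was at -0.74 and 0.20 there, and its difference of -0.93 (interval -1.56 to -0.31) did not pass. Of the 24, 7 were past the authors' threshold only with SNS-032, and over the 14 past it with both the median was 0.39.

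BAK1, a proapoptotic BCL2 family member, was also higher by adjusted p alone (0.59, SE 0.16), at -1.10 with 955 and -1.69 with SNS-032 per the authors' deposited table. The 6 listed BCL2 family genes had a median of 0.13. TRIAP1, a p53-induced gene whose product acts in mitochondria, was the only p53 target of 12 past the threshold (2.23, SE 0.49).

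The replication clamp gene PCNA fell strongly with both compounds, to -3.14 with 955 and -4.21 with SNS-032 per the authors' deposited table. Its difference of 1.07 (SE 0.15, interval 0.75 to 1.39) had a Benjamini-Hochberg adjusted p of 0.000358. Of 41 listed replication and repair genes PCNA alone was past the threshold, and the clamp loader gene RFC4 (-0.74) was lower with 955 by adjusted p alone. None of the 46 listed genes of mitosis was past it in either direction, with a median of -0.07 (0.20 under mitochondrial scaling), and PLK1 was at -4.02 and -4.44 in the authors' deposited table.

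ARF6, a small GTPase of membrane traffic, was at -2.40 with 955 and -3.78 with SNS-032 per the authors' deposited table, a difference of 1.38 (SE 0.19). DNAJB9, a chaperone of the endoplasmic reticulum, differed by 1.83 (SE 0.39) and was the only one of 21 listed chaperone genes past the threshold. The other genes higher with 955 at or above the median level were RNF139 (1.29), which encodes an E3 ubiquitin ligase of the endoplasmic reticulum, the nucleolar protein gene ABT1 (1.24), UBL4A (1.11), of tail-anchored protein insertion, the corepressor gene IRF2BP1 (1.01) and the chromatin remodelling gene BCL7B (1.00). Below the median level the largest were FAM222A (3.18), URB1-AS1 (2.67), GGACT (2.58) and the dynein assembly factor gene DNAAF2 (2.27). TRIAP1 (2.23), the long noncoding RNA LINC01003 (2.19) and BBS12 (2.11) came next. The call of GGACT was lost when the larger implied standard error was used. FAM222A was at -2.71 with 955 and -5.89 with SNS-032 per the authors' deposited table, with an SE of the difference of 0.64. URB1-AS1 is named as an antisense transcript, but no other RefSeq gene overlaps its span. The strand of its reads is not known here.

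**Figure D2:**
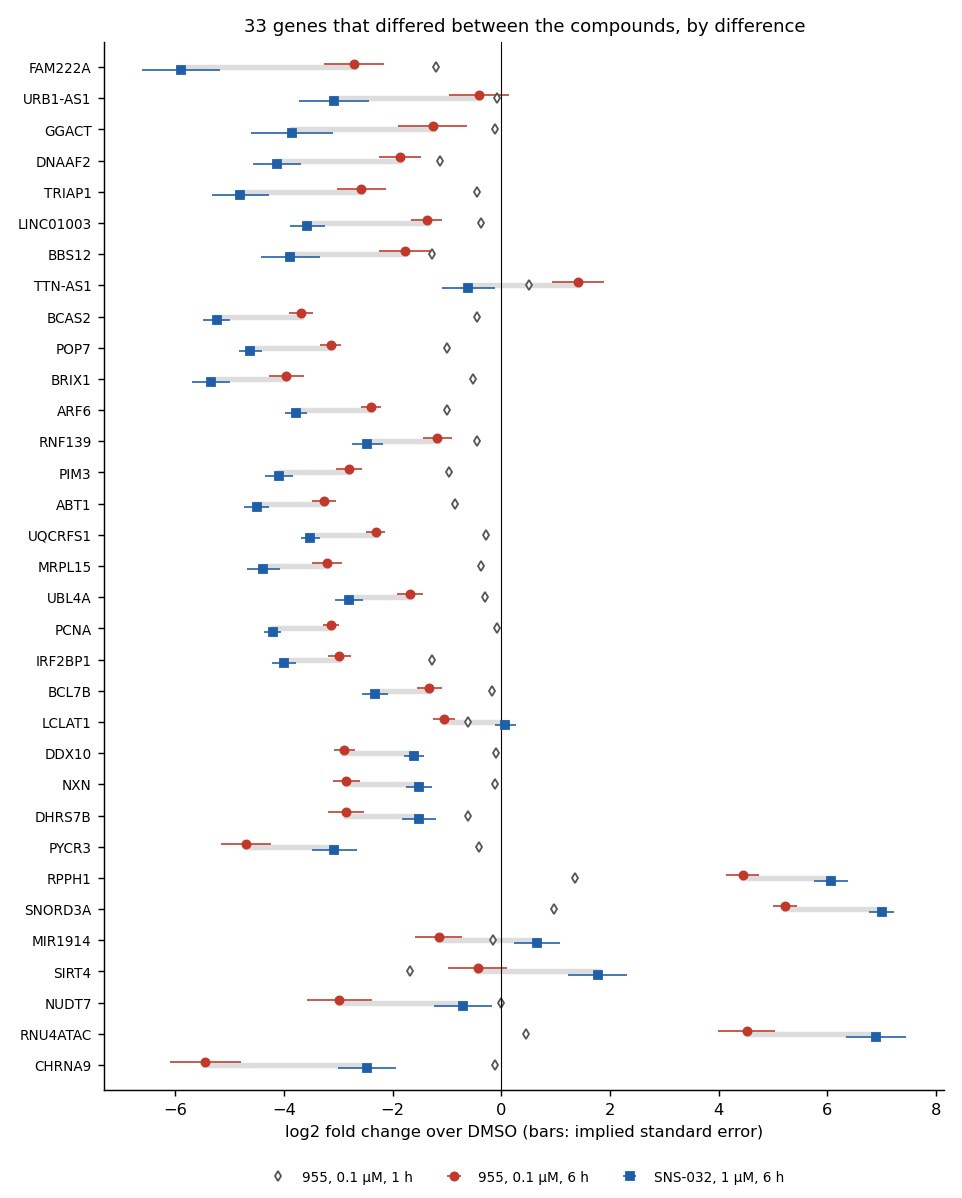
Log2 fold change over DMSO (horizontal axis) from the authors' deposited table for 33 genes past the threshold, ordered by difference: 955 at 6 h (red circles) and SNS-032 at 6 h (blue squares) with implied standard errors as bars, and 955 at 1 h (open diamonds). FAM222A at the top is at -2.71 with 955 and -5.89 with SNS-032, and CHRNA9 at the bottom at -5.45 and -2.48.

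Several genes lower with 955 fell with both compounds. CHRNA9, a nicotinic receptor subunit gene, was at -5.45 with 955 and -2.48 with SNS-032 per the authors' deposited table, the largest difference downwards (-2.97, SE 0.60, Benjamini-Hochberg adjusted p 0.00896). NXN, which encodes nucleoredoxin, was at -2.86 and -1.51 there (difference -1.34, SE 0.24). DHRS7B, a reductase gene of ether lipid synthesis, differed by -1.35 (SE 0.32), and PYCR3, a proline synthesis gene, by -1.62 (SE 0.44), a call that was lost when the larger implied standard error was used.

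LCLAT1 (253558), which encodes an acyltransferase of cardiolipin remodelling, fell only with 955 past the authors' threshold. It was at -1.05 with 955 and 0.07 with SNS-032 per the authors' deposited table, a difference of -1.12 (SE 0.20, interval -1.53 to -0.71, Benjamini-Hochberg adjusted p 0.00319). Under mitochondrial scaling the difference was -0.85 and below the bound of 1. NUDT7, a peroxisomal hydrolase gene, was at -2.98 and -0.71 in that table, a difference of -2.27 (SE 0.57). SIRT4, a mitochondrial sirtuin gene, was at -0.43 with 955 and 1.78 with SNS-032 there, a difference of -2.21 (SE 0.54). Its RefSeq span (chromosome 12, 120291780 to 120313249) overlaps that of the small nuclear RNA gene RNU4-2 (120291759 to 120291903), which was at 7.25 and 8.87 in the authors' deposited table, and reads of the pair cannot be told apart here.

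MED27, a Mediator subunit gene, and CDK6, a G1 kinase gene, were lower with 955 by adjusted p alone. MED27 was at -2.31 with 955 and -1.33 with SNS-032 per the authors' deposited table (difference -0.97, SE 0.18), and CDK6 at -1.03 and -0.52 there (difference -0.51, SE 0.11). Both are long genes, of 219756 and 231653 bases. No other of 35 listed genes of RNA polymerase II, its general factors and Mediator passed by adjusted p, and none of 16 genes of transcription kinases and the 7SK complex did. CCNT1, the cyclin of CDK9, was at -1.31 with 955 and -1.53 with SNS-032 per the authors' deposited table, and its difference of 0.21 had an interval of -0.25 to 0.68. The methylase gene of 7SK, MEPCE, was at -2.30 and -2.55 there, with a difference of 0.25 and an interval of -0.02 to 0.51. CDK7, at an average level of 0.16, was at -0.96 and -4.48 in the same table, and its difference of 3.52 (interval 1.51 to 5.54) missed the threshold at a Benjamini-Hochberg adjusted p of 0.0596.

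Small nuclear RNAs stood far above DMSO with both compounds and were lower with 955 in all 9 cases listed. Their median log2 fold change was 5.76 with 955 and 7.85 with the parent in the authors' deposited table, and the median difference was -2.01, with a range of -2.39 to -1.62. The minor spliceosome RNA RNU4ATAC was past the threshold, at 4.51 with 955 and 6.90 with SNS-032 in that table (difference -2.39, SE 0.54, Benjamini-Hochberg adjusted p 0.0176). It lies within the span of CLASP1. RNU11, of the same spliceosome, was at 8.17 and 10.14 there, and its difference of -1.97 (SE 0.69) did not pass. Of the 9, RNU4ATAC alone was past the threshold. With a standard error modelled as counting error plus extra variance, 7 of the 9 were, under a setting in which 25 of the 5759 genes (0.434%) were lower with 955. For RNU11 the modelled value was 0.047, below the main test's 0.096 for the far more abundant COX1. Such a value leaves almost no room for spread between replicates, so calls resting on it are not firm.

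U3 small nucleolar RNA, which guides early ribosomal RNA cleavage, is transcribed from its own genes like the small nuclear RNAs. Its copy SNORD3A (gene ID 780851) was at 5.22 with 955 and 7.0 with SNS-032 per the authors' deposited table, a difference of -1.79 (SE 0.22, interval -2.25 to -1.33, Benjamini-Hochberg adjusted p 0.000213). The 5 listed SNORD3 genes are near-identical copies, so reads may be split between them. Together with SNORD13 they had differences of -2.0 to -1.30 with a median of -1.77, a grouping made after the values were seen. SNORD3A alone passed. With the alternative variance model, under which 0.434% of the listed genes were lower, all 6 did. These calls are no firmer: the SE of SNORD13 went from 0.95 to 0.039 under it. The 8 other listed small nucleolar or Cajal body RNAs had a median of -0.11, with 5 negative and none past the threshold.

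RPPH1, the RNA subunit of RNase P, is made by RNA polymerase III. It was at 4.44 with 955 and 6.07 with SNS-032 per the authors' deposited table, a difference of -1.64 (SE 0.31, interval -2.27 to -1.0, Benjamini-Hochberg adjusted p 0.00702). RN7SK and the signal recognition particle RNAs RN7SL1 and RN7SL2, made by the same polymerase and named after their values were seen, had differences of -0.17, 0.48 and -0.16 that did not pass. Of 4 listed transfer RNA genes none passed, with a median of -0.17. The libraries were made with an mRNA kit, so what share of each of these RNAs was captured is not known.

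**Figure D3:**
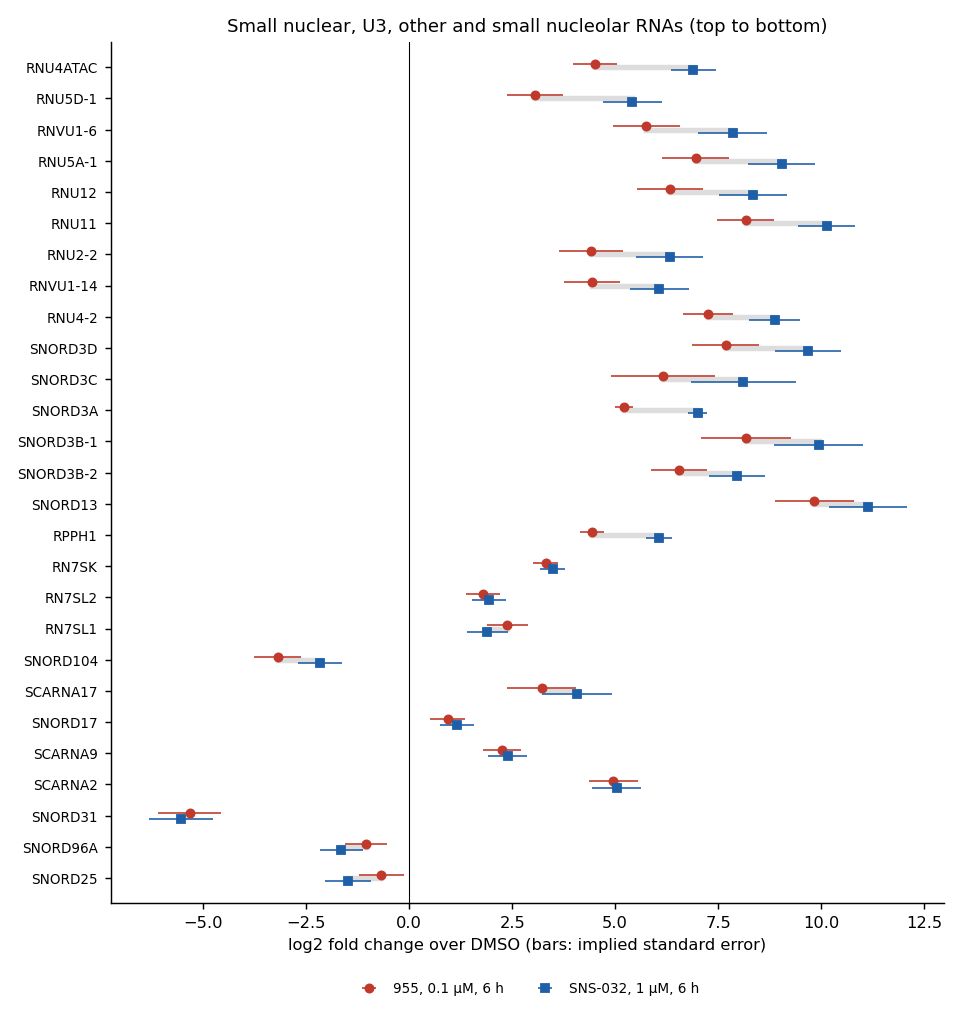
Log2 fold change over DMSO at 6 h (horizontal axis) from the authors' deposited table for 27 short RNAs with implied standard errors as bars, 955 in red and SNS-032 in blue. From top to bottom, all 9 small nuclear RNAs and the 6 U3 and SNORD13 genes lie further right with SNS-032, while RN7SK, RN7SL2 and most other small nucleolar RNAs overlap.

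Of 23 listed microRNA genes or host genes of microRNAs, MIR142 was higher and MIR1914 lower with 955. MIR142, a blood cell microRNA gene, was at -0.05 with 955 and -2.02 with SNS-032 per the authors' deposited table, a difference of 1.97 (SE 0.34, Benjamini-Hochberg adjusted p 0.00268). MIR1914 was at -1.15 and 0.66 there, a difference of -1.81 (SE 0.42). The loci lie within MIR142HG and UCKL1, and reads of a long RNA over a microRNA locus say nothing of the mature microRNA. The mature sequences of both loci from RefSeq are shown with the seed, bases 2 to 8, in capitals, since the loci differ in direction and share no seed.
miR-142-3p: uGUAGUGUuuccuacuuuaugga
miR-142-5p: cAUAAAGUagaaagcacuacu
miR-1914-3p: gGAGGGGUcccgcacugggagg
miR-1914-5p: cCCUGUGCccggcccacuucug
The 4 seeds differ from each other.

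Of 67 listed cytosolic ribosomal protein genes, 63 were above DMSO with each compound, most of them less so with 955. RPL7L1, RPL26L1, RPL36A and RPS27L, named after their values were seen, fell with both and had positive differences. Over the 67, the median log2 fold change was 1.19 with 955 and 1.53 with the parent in the authors' deposited table. The differences were negative for 62 of the 67, with a median of -0.32. None passed both criteria, but 18 were lower by adjusted p alone (26.9% of the list, against 0.972% of all listed genes) and none higher. Of the 18, 13 were past the authors' threshold only with SNS-032 and 5 with both compounds. RPS3 was at 0.69 with 955 and 1.23 with SNS-032 in that table, a difference of -0.55 (SE 0.11, Benjamini-Hochberg adjusted p 0.0069). RPL34 (-0.54), RPL19 (-0.53) and RPS4X (-0.51) had differences of similar size. Under mitochondrial scaling the median was -0.05, with 47 negative and 20 positive, and 1 gene passed by adjusted p in either direction. Of the 67 genes, 17 were past the authors' threshold only with SNS-032, and over the 49 past it with both the median was -0.30. The translation elongation genes EEF1G (-0.48, adjusted p alone) and EEF1A1 (-0.30, not past it) had negative differences too, each turning less negative by 0.27 under that scaling.

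Transcripts of the mitochondrial genome, made by a separate polymerase, were at medians of 2.07 with 955 and 2.35 with the parent per the authors' deposited table. All 13 differences were negative, with a median of -0.25, and none passed. Glycolysis and hypoxia genes were at medians of 1.94 and 2.25 there. LDHA, named after its values were seen, fell with both compounds. Of 27 listed, 25 had a negative difference with a median of -0.17 (0.10 under mitochondrial scaling) and none passed, HK1 among them at -0.39. NFE2L2 pathway and oxidative stress genes had a median of -0.18 (0.09 under mitochondrial scaling), with 12 of 14 negative and none past the threshold. KEAP1, the NFE2L2 repressor gene, was at -3.53 with 955 and -3.67 with SNS-032 per the authors' deposited table, a difference of 0.14 with an interval of -0.37 to 0.65. NFE2L2 itself was at -1.25 and -1.19 there, with an interval of -0.64 to 0.51.

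Genes named ZNF, mostly zinc finger transcription factors, mostly had positive differences. Of 238 listed, 168 were positive, with a median of 0.18. ZNF16 (1.64), ZNF230 (1.64), ZNF561 (1.16) and ZNF394 (1.08) were past the threshold, ZNF230 losing its call when the larger implied standard error was used. By adjusted p alone 9 were higher (3.78%, against 1.75% of all listed genes) and none was lower. Their median after 1 h of 955 was -0.99 in the authors' deposited table. The 164 with up to 5 exons had a median of 0.23, beside 0.15 for the 1569 other coding genes of that structure, and the 70 with more exons one of 0.06.

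Histone genes, most of them without poly(A) tails in their mature mRNA, had a median of 0.19 over 38 listed, and none was past the threshold. The polyadenylated variant genes H3-3B (0.71) and H2AX (0.62) were higher by adjusted p alone. H3-3B was at -0.98 with 955 and -1.69 with SNS-032 per the authors' deposited table (SE of the difference 0.11, Benjamini-Hochberg adjusted p 0.000797). H1-4 was at 3.20 and 4.43 there, and its difference of -1.23 (interval -1.99 to -0.47) did not pass.

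Of the 33 lists, 1 or more genes past the threshold were found only in those for which such genes are named above. The heat shock gene HSPA8 was at -4.29 with 955 and -4.98 with SNS-032 per the authors' deposited table, with an interval of the difference of -0.17 to 1.56. XBP1, of the unfolded protein response, was at -4.82 and -5.06 there, with an interval of -0.76 to 1.25. CDK1 was at -1.71 and -1.53, with an interval of -0.45 to 0.09. The proteasome and ubiquitin ligase list had 1 gene higher by adjusted p alone, PSMD7 (0.67), with a median of 0.00 over 45 genes. That list is not complete. The ligase gene RNF139, named above, and the proteasome gene ADRM1 (0.86, adjusted p alone) were higher with 955 and are not on it. Such genes outside the list were not counted in either direction. T-cell receptor and signalling genes had none in 20, with a median of -0.12 (0.16 under mitochondrial scaling).

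**Figure D4:**
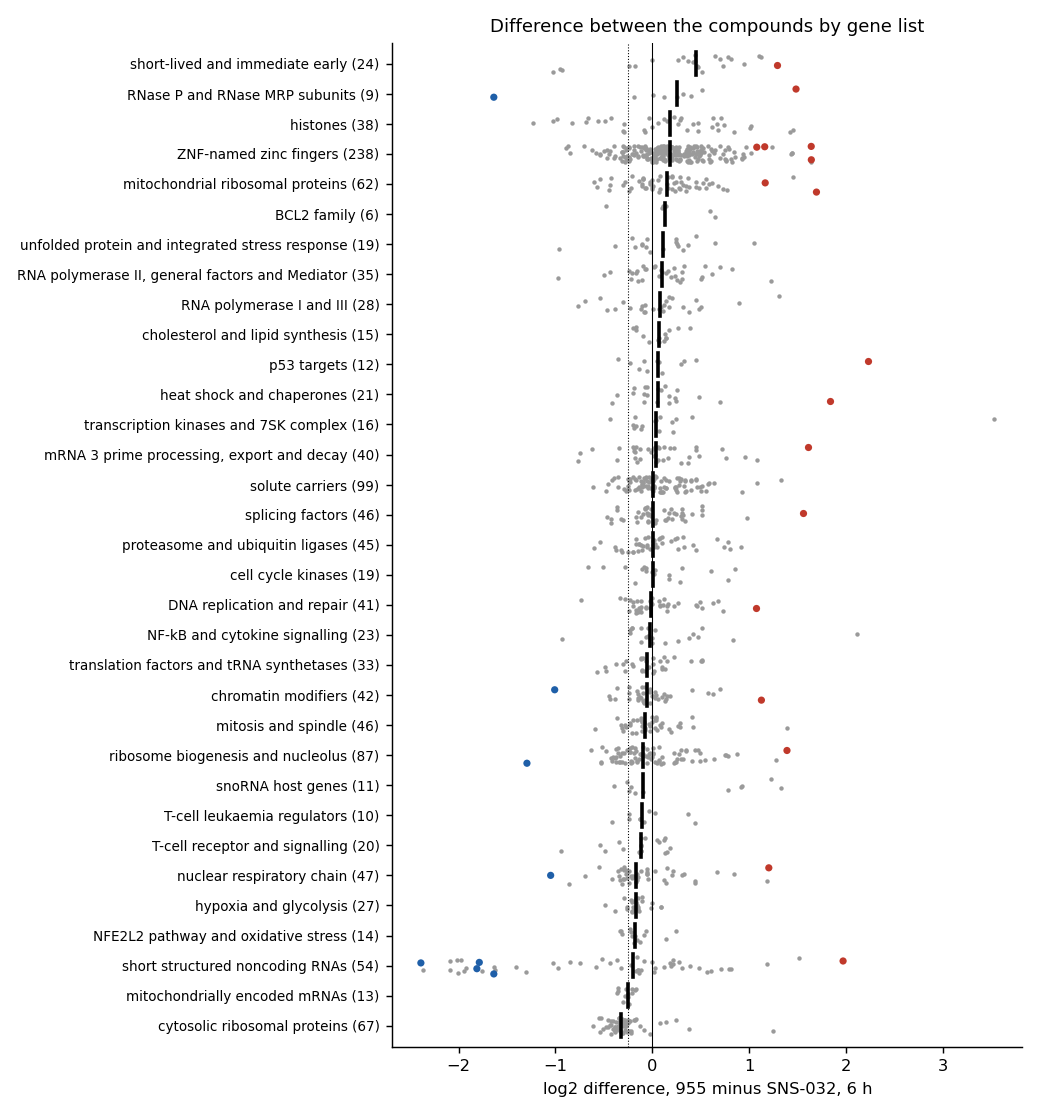
Log2 difference between 955 and SNS-032 at 6 h (horizontal axis) for the listed members of 33 gene lists, 1 point for each gene with random vertical spread; black bars are medians, red and blue points are past the threshold, the solid line is the median of all listed genes and the dotted line that of the mitochondrially encoded mRNAs. Medians run from -0.32 for cytosolic ribosomal proteins to 0.45 for short-lived transcripts.

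Genes higher with 955 were mostly short and had few exons. Of the 49, 31 had 1 to 3 exons (63.3%, against 19.2% of all listed genes with an exon number). Those under 10 kb were 31, against 1575 of the 5759 listed, and none spanned 100 kb or more. Their median span was 5234 bases, against 22321 for all listed genes. The median level of the 49 was also lower, at 3.13 against 4.15. Of the 15 lower genes, 4 spanned 100 kb or more (NXN, DDX10, LCLAT1 and NDUFS4), against 710 of the 5759 listed.

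Across protein-coding genes the difference fell with the number of exons. Its median was 0.30 for 182 genes with 1 exon, 0.25 for 2 exons, 0.18 for 3, 0.08 for 4 to 5, -0.01 for 6 to 10, -0.07 for 11 to 20 and -0.10 for 577 genes with over 20. In the authors' deposited table, the median for genes with 1 exon was -1.21 with 955 and -1.53 with SNS-032, and that for genes with over 20 at 1.19 and 1.29. The average level moved with exon number too, from a median of 2.94 to 5.21, and its part in the result was not tested. Among genes at or above the median level the order of the bins was the same, from 0.23 to -0.10. The medians are a description: genes are not replicates, and quartiles of neighbouring bins overlapped. The lowest bin medians turn positive under mitochondrial scaling, which leaves the order as it is.

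Span gave a weaker order. The median difference went from 0.10 for genes under 3 kb to -0.09 for genes of 100 kb or more, but among genes at or above the median level it was -0.10 for those under 3 kb. The listed cytosolic ribosomal protein genes had a median span of 4799 bases and a median level of 10.1.

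The median difference at 6 h was also higher for genes that were lower after 1 h of 955, in samples that the difference does not use. The DMSO of that comparison was collected at 6 h, so treatment and time in culture cannot be told apart in it. The median difference was 0.26 for 171 coding genes with a log2 fold change under -1.5 at 1 h, 0.17 for -1.5 to -1, 0.09 for -1 to -0.5, 0.04 for -0.5 to 0, and -0.08 for both bins above 0. At or above the median level the order did not hold for the lowest bin, whose 16 genes had a median of 0.03 against 0.08 in the next. Taken with exon number, genes of 1 to 3 exons had a median of 0.31 when below -0.5 at 1 h (473 genes) and 0.11 otherwise (420 genes). Genes with over 10 exons did not show that order, at -0.12 (234 genes) and -0.08 (1748 genes).

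**Figure D5:**
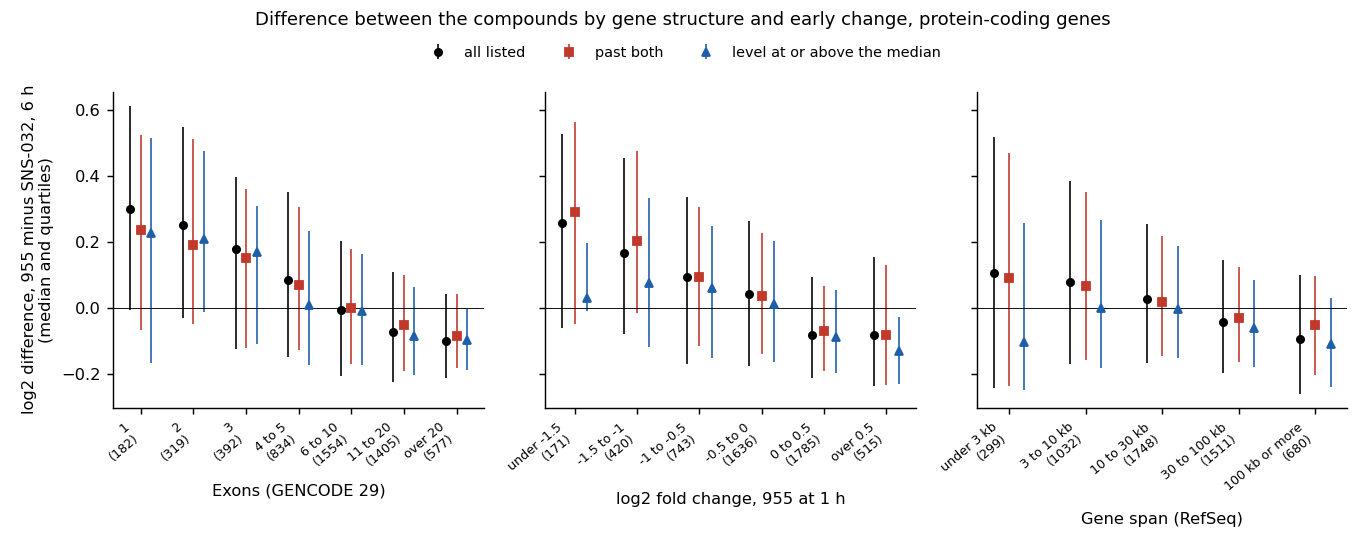
Median and quartiles of the log2 difference between 955 and SNS-032 at 6 h (vertical axis) for protein-coding genes by exon number, by log2 fold change after 1 h of 955 and by gene span, with gene numbers in parentheses; black is all listed genes, red those past the threshold with both compounds, blue those at or above the median level. Medians step down from 0.30 at 1 exon to -0.10 at over 20 exons.

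How genes came to be listed also bears on the difference. With 955, 35.2% of the 5759 genes were past the authors' threshold upwards and 50.1% downwards in the authors' deposited table, and SNS-032 had 37.8% and 52.5% there. Both compounds were past the authors' threshold for 4437 genes, 955 alone for 474, SNS-032 alone for 759 and neither at 6 h for 89. A gene listed through 1 compound had to differ in some degree. Among the 4437, 36 genes were higher and 8 lower with 955, and exon number gave the same order of medians, from 0.24 to -0.09.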

How the data were processed

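RNA of MOLT4 cells was sequenced in 4 groups of 3 samples, with an mRNA library kit per the labels' protocols. The aligner, counter, use of strand and statistical design are not given in the sources used here. The submitters' processing notes name DESeq2 and hg38. The table holds F statistics, which the tests of DESeq2 do not report, so the tool behind them is not settled here, and every standard error and adjusted p rests on them. Nothing says that samples came from separate cultures, so p-values may say nothing of the spread between cultures. They do not rest on each gene's own samples alone. The recovered degrees of freedom had a median of 23.3, against 8 left by the samples.

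Per the file headers, the authors' table of 3 comparisons with DMSO gives a log fold change and an average log CPM, read as log2 values. The F statistic is used as a score, and the p-value and FDR are those the authors deposited. Past the authors' threshold means an FDR under 0.05 with a log2 fold change of 1 or more in size.

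An implied standard error was the absolute log2 fold change over the root of F, and that of the difference the root mean square of both. Degrees of freedom per gene were solved from F and p. Two-sided p-values came from a t distribution (scipy 1.17.1), adjusted by Benjamini-Hochberg over 5759 genes. The code was run on simulated counts whose F was built by the same formula. That run cannot show whether the formula holds for the authors' F. RefSeq (GRCh38.p14) matched 5727 gene IDs, and GENCODE 29 gave exon numbers for 99.9% of protein-coding genes.

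Members and lists were chosen with earlier results of these data known. Named genes were up to 15 in each direction with the largest difference among those past the threshold at or above the median level, up to 8 below it, those past the threshold in each list with up to 4 others by test statistic, and 12 fixed genes where listed. The closing section gives the alternatives.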

Additional observations from a re-analysis of the deposited data

How the results depend on the processing

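No paired analysis was possible because the deposited table holds comparisons and no values per sample, so neither a replicate block nor leaving out a replicate could be run. Against 64 genes past the threshold (49 higher, 15 lower), ignoring the shared control left 8 (6 and 2), and 8 degrees of freedom left 0 (0 and 0). Mitochondrial scaling gave 181 (170 and 11), of which 60 were among the 64. Dropping the fold bound gave 157 (101 and 56). The variance model gave 68 (43 and 25), of which 55 were among the 64. The larger standard error gave 57 (44 and 13), and a minimum level of 1 log2 CPM gave 58 (44 and 14). Restricting to genes past the authors' threshold with both compounds, an alternative chosen after seeing the data, gave 44 (36 and 8). The larger standard error ended 5 calls of named genes (PYCR3, NDUFS4, BRIX1, ZNF230 and GGACT), and the variance model ended the same 5 with PCGF1 and MRPL15, and made 3 (RNU5D-1, RNU11 and RNU4-2). The restriction to genes past it with both compounds ended 3 (PYCR3, NDUFS4 and ZNF230). Calls lost under mitochondrial scaling were those of LCLAT1 (-0.85), NDUFS4 (-0.77) and PCGF6 (-0.73). It made 16 calls of named genes, all higher with 955: ZNF22, RRP36, ZFC3H1, IMP3, PSMG4, ZNF213, MED8, ZNF689, CDKN2D, UTP4, SNAPC2, ZNF134, ZFP36L1, LSM1, IER2 and CDK7. It turned the sign of 12 named genes that were not past the threshold: ALDOC (0.012), PGAM1 (0.016), COX3 (0.037), GCLC (0.042), GSR (0.058), TPI1 (0.066), GPX4 (0.086), POP4 (0.086), CDK1 (0.092), CDK10 (0.098), DDB2 (0.14) and NFE2L2 (0.21). By construction it adds one value to every difference. For the other settings the cause was not tested.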
